A study of Mus musculus with 81 samples.

Results

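Open active enhancer-type regions are stretches of accessible chromatin that carry H3K27ac and H3K4me1 and lack H3K4me3 and RBPJ. They were chosen from the ATAC-seq region list of the control line as those that overlapped a listed H3K27ac region and a listed H3K4me1 region by at least 1 bp, and no region of the H3K4me3 list or of either RBPJ list. The rule found 4747 members among 47748 ATAC regions, or 9.94% of the list (95% Wilson interval 9.68 to 10.2%, counting error only). The name stands for this combination of lists. No readout of enhancer activity was analysed here.

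The study examined RBPJ in mature T cells of a mouse hybridoma line, that is, cells made immortal by fusion with a tumour cell. ATAC-seq, which marks DNA open to a transposase, was run on the control line of the Rbpj CRISPR experiment (Control_sgRbpj) and on the RBPJ-depleted line sgRbpj 2-12, with 3 libraries each. Another Rbpj-edited line, sgRbpj 2-14, enters here only through its RNA. The ATAC-seq list used here carries the name of the control line. ChIP-seq of the 3 histone marks was run in both of these lines with 2 libraries per mark and line. The deposited mark lists name no line, so each may pool both. The first RBPJ list is from the control line, and the other is from cells infected with BioNICD1 wild type, a tagged intracellular domain of the Notch1 receptor. Every list gives only where a region starts and ends, with 1 list per mark and no value per library. Differences between lines or libraries therefore could not be measured, no test between groups exists, and all values are descriptions of these lists.

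Enhancers are stretches of regulatory DNA that raise transcription from promoters at a distance and differ between cell types more than promoters do. H3K4me1 marks enhancers whether or not they are in use, H3K27ac marks active enhancers and promoters alike, and H3K4me3 marks mainly promoters. RBPJ is the DNA-binding protein of the Notch pathway: it holds its targets down together with corepressors and switches to activation when it binds the Notch intracellular domain. Open regions with H3K4me1 but no H3K27ac are often described as primed and serve here as the nearest comparison.

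The labelled cell type was checked in the RNA libraries of the control, 2-12 and 2-14 lines, 2 each, with 2377028 to 5998832 counts per library. Of 9 T cell markers, 8 were in the table, and they summed to 677 to 854 CPM, a count corrected for the size of its library. Cd3e, a chain of the T cell receptor complex, stood at 149.8 and 114.9 CPM in the control libraries, while Cd5, a T cell surface protein, had 0 counts there and at most 5 in the other libraries. Among B cell genes, Ms4a1 and Pax5 were at 0 in these libraries, and Cd79a and Cd79b had at most 3 counts in any of them, while fibroblast markers summed to at most 0.833 CPM. Myeloid markers summed to 21.5 to 58.9 CPM, mostly Cd68, a lysosomal protein, and erythroid markers to 0.737 to 13.1 CPM. Rbpj, the targeted gene, stood at 170.4 and 134 CPM in the control libraries, at 44.2 and 32.2 CPM in line 2-12, and at 59.7 and 42.7 CPM in line 2-14. The lists of regions hold no trace of how far each library contributed.

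The choice went in steps, and these counts describe the rule rather than a finding. Of the ATAC regions, 28799 overlapped H3K27ac and 31937 overlapped H3K4me1, and 21079 overlapped both. Among those with both marks, 16280 (77.2%) also overlapped H3K4me3 and were set aside. Of the 4799 that remained, 52 (1.08%) overlapped RBPJ, which left the 4747 members. Thus, in this order of steps, H3K4me3 removed most candidates and RBPJ removed few. Of the regions set aside for H3K4me3, 2054 also overlapped RBPJ.

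**Figure D1:**
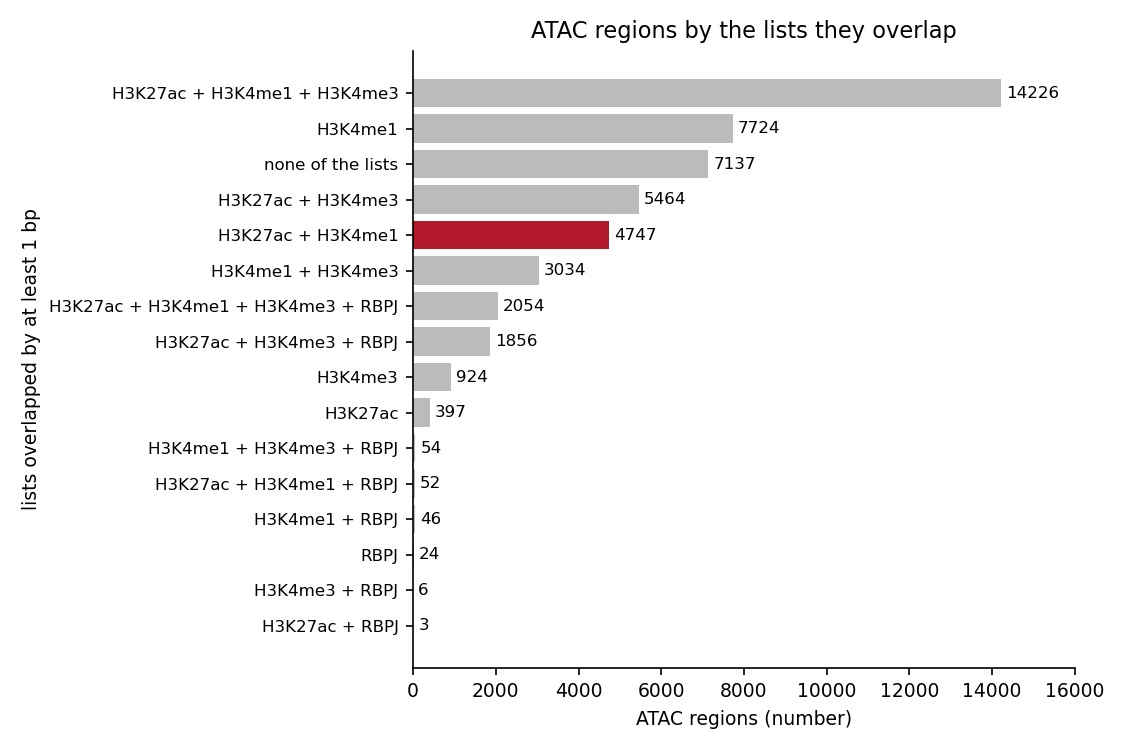
Number of ATAC regions (horizontal axis) for each combination of lists they overlap by at least 1 bp (vertical axis). The red bar is the 4747 open active enhancer-type regions, smaller than the 7724 regions with H3K4me1 alone and the 14226 with all 3 histone marks and no RBPJ.

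Open regions that carried both H3K27ac and H3K4me1 met RBPJ far more often where H3K4me3 was present. There, 2054 of 16280 regions (12.6%) overlapped RBPJ, against 52 of 4799 (1.08%) without H3K4me3. Wide regions have more bases that can overlap a list, and regions with H3K4me3 were wider. Within the bin of 400 to 600 bp the shares were 0.738% without H3K4me3 and 1.496% with it. They were 2.42% (14 of 578) and 12.8% in the bin of 800 to 1200 bp, and 3.797% (3 of 79) and 26.9% at 1200 bp or more. The share without H3K4me3 was the lower in each of the 5 bins of width, and the distance between the shares was smallest among narrow regions. Some counts are small: in the bin of 200 to 400 bp the shares rest on 3 of 709 and 6 of 546 regions. Of the 52 regions that only RBPJ kept out, 51 were in the BioNICD1 list and 5 in the control list (4 in both). Of the 2054 with H3K4me3, 1779 were in the BioNICD1 list and 834 (40.6%) in the control list. The BioNICD1 list is the longer, with 3735 regions against 1752.

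Among open regions with H3K4me1 and neither H3K4me3 nor RBPJ, 12471 in all, the members are the 38.1% that also overlapped H3K27ac. Read from the other mark, nearly every open acetylated region of this kind had H3K4me1: of the open regions with H3K27ac and neither H3K4me3 nor RBPJ, 92.3% overlapped H3K4me1, and only 397 did not. Without H3K27ac, H3K4me3 or RBPJ, the share with H3K4me1 was 52.0%.

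By their medians, members were narrower than open regions with H3K4me3 but wider than primed regions and open regions without any listed mark. Their widths ran from 220 to 2189 bp with a median of 534 bp, and the middle of the distribution lay between 439 and 682 bp (25th and 75th percentiles). The median was 480 bp in primed regions, 465 bp in open regions without any listed mark, and 865 bp in open regions with all 3 histone marks. The member median was above the primed median on 20 of 20 chromosomes. The few regions that RBPJ kept out had a median of 675 bp. Members made up 14.4% of ATAC regions of 400 to 600 bp but 1.03% of those of 1200 bp or more, where H3K4me3 was usually present. The widest member, chr7:107649174-107651362 (mm9), spanned 2189 bp, of which 793 lay in H3K27ac and 1581 in H3K4me1. The next were chr6:8597777-8599702 at 1926 bp and chr4:59456963-59458850 at 1888 bp. Unlike the first, the latter lay in H3K27ac over all of its 1888 bases.

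The centre of most members lay inside both marks, while the marks' edges often fell within the member. H3K27ac covered the whole width of 2597 members (54.7%) and the centre base of 82.8%. H3K4me1 covered the whole width of 3487 (73.5%) and the centre base of 88.4%. The centre lay in both marks in 3628 members, in H3K4me1 only in 567, in H3K27ac only in 301 and in neither in 251. Under 50% of the width was acetylated in 746 members (15.7%). Both marks reached across the whole of 2213 members (46.6%).

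Around the centres of members, H3K4me1 reached farther than H3K27ac. At 500 bp on the left (lower coordinates) and right of the centre, H3K27ac covered 56.5% and 46.6% of members and H3K4me1 covered 80.7% and 76.4%. At 1000 bp the shares had dropped to 13.4% and 11.4% for H3K27ac and to 35.0% and 32.0% for H3K4me1. Primed regions had a narrower band of H3K4me1, with 58.2% and 50.8% covered at 500 bp and 15.1% and 13.9% at 1000 bp. At the centre itself the classes were close, at 88.4% of members and 87.0% of primed regions. Thus the shoulder, not the centre, set members apart from primed regions in H3K4me1. A wide shoulder was not particular to members. At 1000 bp, open regions with H3K4me3 had still larger shares covered, at 53.7% and 51.5% for H3K4me1 and 27.4% and 24.2% for H3K27ac.

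Open regions with H3K4me3 had another shape. H3K4me1 covered 56.7% of their centres but 70.7% and 72.3% of positions 500 bp away, a dip over the open site, while H3K27ac covered 92.3% of the centres and H3K4me3 92.8%. In members the H3K4me1 dip was slight, from 91.1% at 200 bp to 88.4% at the centre. A member touched 2 or more H3K4me1 regions in 465 cases (9.80%), and in 265 of these the centre was uncovered. In open regions with H3K4me3 the share touching 2 or more was 23.4%, and in primed regions 3.37%.

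**Figure D2:**
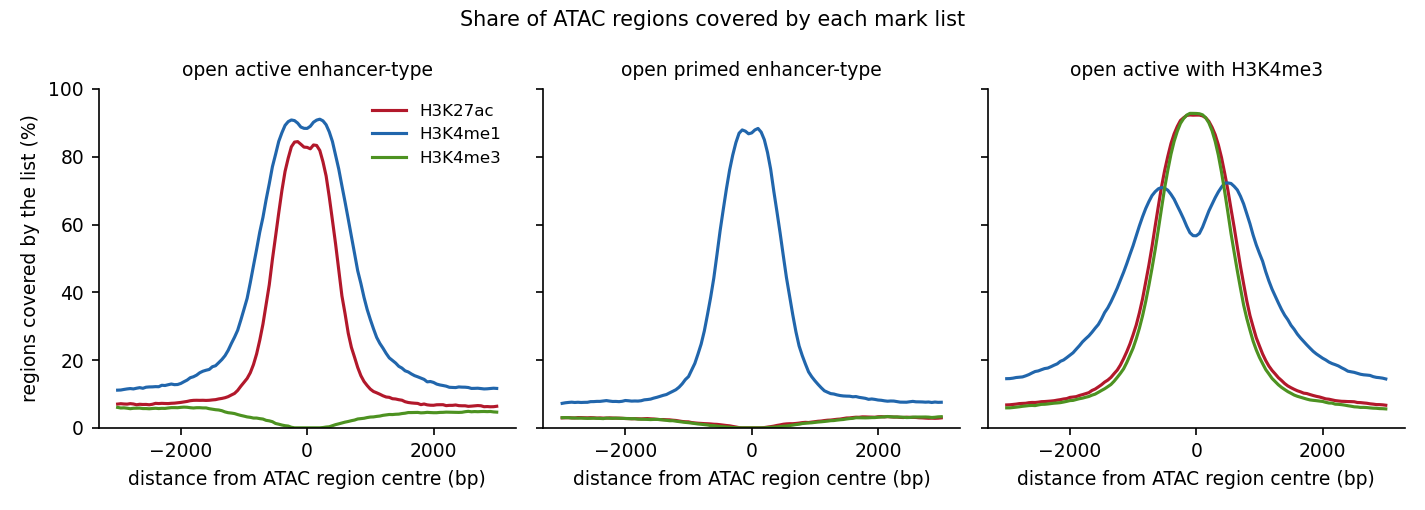
Share of regions (%, vertical axis) covered by the H3K27ac (red), H3K4me1 (blue) and H3K4me3 (green) lists at each distance from the ATAC region centre (bp, horizontal axis), for members, primed regions and regions with H3K4me3. In members H3K4me1 stays above H3K27ac on both sides of the centre, and in regions with H3K4me3 it dips to 56.7% at the centre; the zeros at the centres follow from how the classes were chosen.

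The mark regions that members overlapped also differed in width. Members met 4992 H3K27ac regions with a median width of 915.5 bp, close to the 945 bp of the whole list. They met 5130 H3K4me1 regions with a median of 1398 bp, against 1022 bp for those met by primed regions and 846 bp over the whole list. The difference held among ATAC regions of 400 to 600 bp, where the medians were 1395 bp for members and 1026.5 bp for primed regions, and in 20 of 20 chromosomes. Of the 4080 members that met exactly 1 region of each mark, the H3K27ac region lay wholly inside the H3K4me1 region in 63.6%, and the reverse held in 5.00%. Their median widths were 978 bp for H3K27ac and 1495 bp for H3K4me1. Among regions with H3K4me3 the nested share was 43.3%, and H3K27ac was the wider in 39.5%, against 15.6% of members. On this count the median widths with H3K4me3 were 1347 bp for H3K27ac and 1508 bp for H3K4me1. The H3K4me1 width was thus close to that of members, and the H3K27ac width was larger. Over all H3K4me1 regions met by regions with H3K4me3, the median was 1180 bp.

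Members shared acetylated regions with each other in few cases. Of the 4992 H3K27ac regions, 4923 held 1 member and 69 held 2, the highest number found. Another ATAC region, not a member, lay in 208 of them. The 3 acetylated regions that ranked first by number of members and then by width were chr15:66625569-66639946 (14378 bp), chr15:66640125-66651365 (11241 bp) and chr7:29165371-29169997 (4627 bp), with 2 members each. All 3 also overlapped H3K4me3. The 2 on chromosome 15 are neighbours and rank 2 and 7 by width among all 46506 H3K27ac regions. Of the acetylated regions with members, 277 (5.55%) overlapped H3K4me3 elsewhere along their length, and 282 members (5.94%) lay in such a region.

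Acetylated regions of the enhancer type were often without an ATAC region. Of 12782 H3K27ac regions that overlapped H3K4me1 and not H3K4me3, 5119 (40.1%) overlapped an ATAC region, and 4679 held a member. Of the 21674 that overlapped both H3K4me1 and H3K4me3, 84.1% overlapped an ATAC region. Up to 2500 bp, this share rose with width. Without H3K4me3 it was 25.6% under 500 bp and 37.8% from 500 to 1000 bp. It was 59.7% from 1000 to 1500 bp and 72.1% from 1500 to 2500 bp. With H3K4me3 the shares in the same bins were 54.1%, 72.7%, 87.4% and 94.7%. The share was thus lower without H3K4me3 in each of these bins. At 2500 bp or more the rise broke off without H3K4me3, at 41.4% of 99 regions, against 97.5% with it (see Other observations).

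Members lay closer to H3K4me3 regions than primed regions and open regions without any listed mark. The 52 regions that only RBPJ kept out lay closer still, with a median gap of 5480.5 bp. The gap, counted in bases between the nearest edges, had a median of 8441 bp in members (25th and 75th percentiles 3458.5 and 19950 bp), 12573 bp in primed regions and 14942 bp in open regions without any listed mark. Among regions of 400 to 600 bp the medians were 8590.5, 13009 and 15424 bp. Counted only to H3K4me3 regions of at least 1000 bp, the medians were 12595 bp in members and 20735 bp in primed regions. The member median was shorter than the primed median on 20 of 20 chromosomes. The distributions overlapped widely, since 23.1% of primed regions and 34.4% of members lay within 5000 bp.

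At the far end, the member farthest from any H3K4me3 region was chr17:61728621-61729116, 656416 bp away. It was followed by chr17:61654412-61654773 at 582207 bp, on the same stretch of chromosome 17. The next were chr2:89036465-89037258 at 481603 bp, chr15:20366066-20366627 at 430943 bp and chr13:88215986-88216701 at 406736 bp. Acetylation covered the whole width of 4 of these 5 and 544 of the 562 bases of the member on chromosome 15. In all, 386 members (8.13%) lay 50000 bp or more from H3K4me3.

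Seen from the H3K4me1 side, the share of open H3K4me1 regions that were acetylated fell with distance from H3K4me3. It was 57.0% (95% Wilson interval 53.5 to 60.3%; 467 of 820) under 1000 bp, 44.9% (43.0 to 46.8%) from 1000 to 5000 bp and 38.0% (36.7 to 39.3%) from 5000 to 20000 bp. From 20000 to 50000 bp it was 31.8% (29.99 to 33.6%), and beyond 50000 bp it was 26.4% (24.2 to 28.7%; 386 of 1462). These intervals cover counting error only, and neighbouring regions are not independent. Under 1000 bp, 249 of the 467 members lay in an H3K27ac region that also overlapped H3K4me3, so that 1 acetylated stretch ran from the H3K4me3 region to the member. Without these 249 the share under 1000 bp was 38.2%, below the 44.2% found from 1000 to 5000 bp on the same count. Leaving them out can only lower the share, since primed regions have no H3K27ac to share. Beyond 1000 bp the shares still fell from bin to bin, to 38.0%, 31.8% and 26.4%. The share within 5000 bp exceeded that beyond 20000 bp on 20 of 20 chromosomes, with all members counted.

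**Figure D3:**
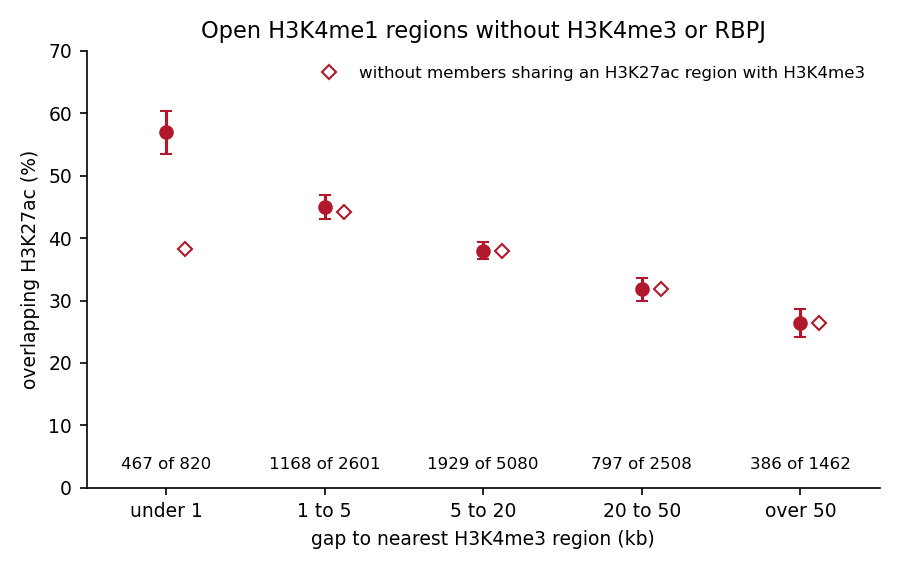
Share of open H3K4me1 regions without H3K4me3 or RBPJ that overlap H3K27ac (%, vertical axis) by the gap to the nearest H3K4me3 region (kb, horizontal axis); bars are 95% Wilson intervals and the numbers give members of all regions in the bin. Filled points fall from 57.0% to 26.4%, and open diamonds leave out members whose H3K27ac region also overlaps H3K4me3, which lowers the first bin to 38.2%.

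The members that were found far from H3K4me3 were covered more fully. H3K27ac spanned the whole width of 43.0% of members under 1000 bp, 48.5% from 1000 to 5000 bp, 57.3% from 5000 to 20000 bp, 60.1% from 20000 to 50000 bp and 63.5% beyond. Member width did not follow this order, with medians of 503, 524, 552, 529 and 529 bp. The acetylated regions were widest in the nearest bin (median 1119.5 bp) and then ran from 815.5 to 971 bp with rising distance. Thus acetylated members were a smaller share of open H3K4me1 regions far from H3K4me3, but a larger share of them was spanned by the mark.

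Counted from the open regions, members had a shorter median gap to RBPJ than primed regions. The median gap to the nearest RBPJ region of either list was 89639 bp in members, 113896.5 bp in primed regions, 125808 bp in open regions without any listed mark and 88461.5 bp in open regions with all 3 histone marks. To the control list alone the medians were 259898 bp in members and 312436 bp in primed regions. To the BioNICD1 list they were 104288 and 130859 bp. By these medians, members were about as far from RBPJ as open regions with H3K4me3 that carry no RBPJ themselves. The order of members and primed regions held on 20 of 20 chromosomes.

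Few members had RBPJ close by, and regions that overlap RBPJ were left out of all classes compared here. Within 1000 bp, 18 members (0.379%) had an RBPJ region, against 8 primed regions (0.104%) and 113 open regions with H3K4me3 (0.794%). Within 5000 bp the numbers were 170 members (3.58%) and 111 primed regions (1.44%). Open regions without any listed mark reached 0.897%, and open regions with H3K4me3 reached 3.44%. Within 50000 bp the shares were 35.6% of members and 28.4% of primed regions. The relative difference between members and primed regions was thus larger at short range, though the counts within 1000 bp are small.

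RBPJ regions themselves lay almost all in H3K4me3, so nearness to either mark cannot be read alone. Of the control list regions that overlap the BioNICD1 list, 98.6% overlapped H3K4me3, as did 94.9% of those in the control list only and 90.5% of those in the BioNICD1 list only. In bins of distance to H3K4me3, the median gap to RBPJ was shorter in members than in primed regions in each of the 5 bins. It was 60154 against 72729 bp under 1000 bp, 77094 against 89154 bp from 5000 to 20000 bp, and 290574.5 against 311853.5 bp beyond 50000 bp. These differences are small beside the spread, since the 25th and 75th percentiles in members were 29976 and 236200 bp. The bins are wide and the last has no upper limit, so distance to H3K4me3 may still differ between the classes within a bin. Open regions without any listed mark had the longest median in 4 of the 5 bins (194625 bp under 1000 bp, and 329593 bp beyond 50000 bp), and from 5000 to 20000 bp their median of 80657 bp lay between the others.

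**Figure D4:**
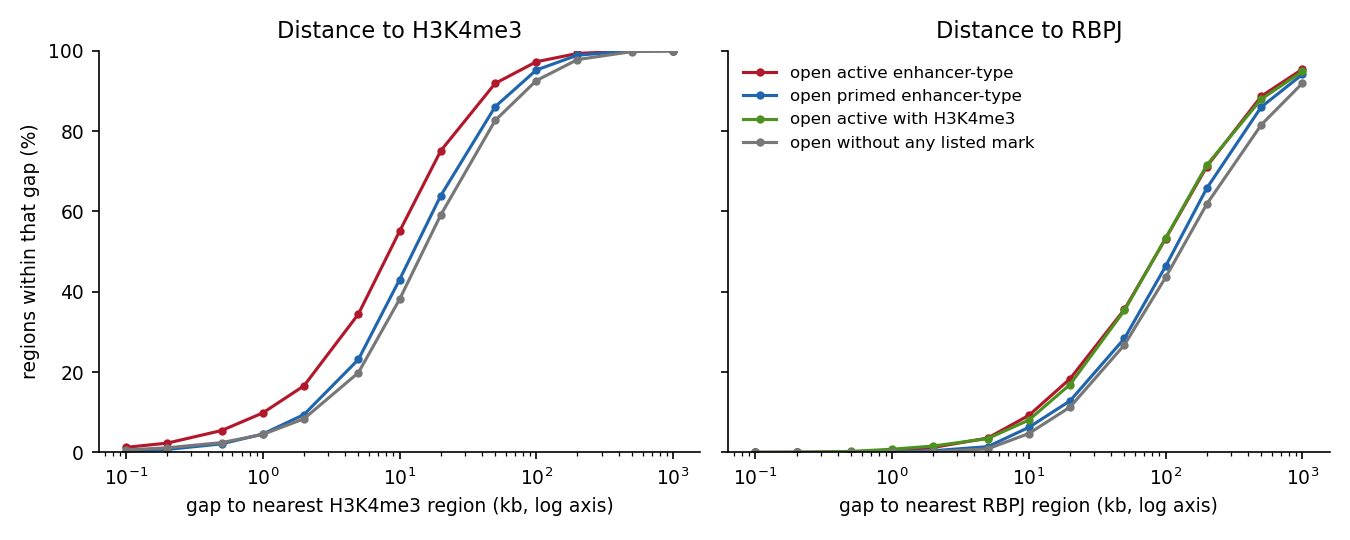
Share of regions (%, vertical axis) that lie within a given gap (kb, log axis) of the nearest H3K4me3 region (left) or RBPJ region of either list (right), by class. Members lie above primed and unmarked regions on the left, and on the right they run with the regions that carry H3K4me3.

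Seen from RBPJ, a member within reach was about as common whichever list held the RBPJ region. A member lay within 10000 bp of 115 of 1163 control list regions that overlap the BioNICD1 list (9.89%), of 53 of 589 in the control list only (8.998%) and of 269 of 2566 in the BioNICD1 list only (10.5%). Within 50000 bp the shares were 38.3%, 38.7% and 38.6%. Primed regions, which are more numerous (7724 against 4747), were found near RBPJ more often on this count. One lay within 10000 bp of 12.0%, 11.7% and 10.7% of these RBPJ regions, in the same order, and within 50000 bp of 47.55%, 47.2% and 46.45%. The order of the classes thus depended on which side was counted from.

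Members seldom stood in groups. When members less than 10000 bp apart were joined, 688 of them (14.5%) fell into 327 clusters, of which 296 held 2 members, 28 held 3 and 3 held 4. The clusters spanned a median of 6333 bp and at most 17993 bp. A like share of primed regions, 13.7%, fell into 502 clusters, with up to 7 in 1 cluster. Primed regions are more numerous (7724 against 4747), which shortens the gaps between them, so like shares do not mean like clustering. Joining at 5000 bp placed 7.88% of members and 6.31% of primed regions in clusters, while joining at 25000 bp placed 29.2% and 31.4%. No order of the classes therefore held across the distances.

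The 3 clusters of 4 members differed in their marks. At chr7:57066703-57083731 the members lay at 57066703-57067284, 57067467-57067949, 57077230-57078018 and 57083220-57083731. H3K27ac covered 32 of 582, 312 of 483, all 789 and all 512 bases of these, in that order. This cluster also held 1 H3K4me3 region and 1 further ATAC region, and its nearest RBPJ region was 873549 bp away. At chr15:66637890-66647400 both marks covered all 4 members over their whole width, in the neighbouring wide acetylated regions named above, which took up 9333 of its 9511 bp. The cluster at chr2:29479570-29488434 held no H3K4me3 region and no ATAC region other than its 4 members. Its nearest H3K4me3 region was 2464 bp away, and H3K27ac took up 2666 of its 8865 bp in 5 pieces.

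The longest of the clusters with 3 members were chr5:3455290-3473282 and chr6:146378179-146395013. The first, at 17993 bp, held only members as open regions and no H3K4me3, with the nearest such region 18693 bp away and RBPJ 70245 bp away. The other held 5 ATAC regions, 3 of them members, with 1 H3K4me3 region among them and RBPJ 55039 bp away. Of the 5 clusters named, 3 therefore enclosed an H3K4me3 region.

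The nearest neighbour of a member was a member more often than the share of members in the list. The nearest other ATAC region was itself a member for 15.95% of members, against 9.94% of the whole list, and for 9.13% of primed regions. It was a region with all 3 histone marks for 34.8% of members, against 29.8% of the list, and a primed region for 13.2%, against 16.2%. Primed regions in turn had a primed neighbour in 20.1% of cases. The median gap to that neighbour was 6891 bp for members, 9141 bp for primed regions and 10941 bp for regions without any listed mark.

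Members were spread over the 19 autosomes and the X chromosome, with 112 to 387 on each. Their share of a chromosome's ATAC regions had a median of 10%. It was highest on chromosome 16, at 11.9% (95% Wilson interval 10.5 to 13.6%; 201 of 1684), followed by chromosome 6 at 11.8% and chromosome 1 at 11.8%. It was lowest on the X chromosome, at 8.32% (6.96 to 9.92%; 112 of 1346), and on chromosome 5, at 8.35%. These are the extremes of 20 chromosomes, and their difference was not tested. On the X chromosome the low share did not extend to acetylation: 40.0% of its open H3K4me1 regions without H3K4me3 or RBPJ were acetylated, against 38.0% on the autosomes. Across chromosomes that share ran from 34.5% on chromosome 3 to 41.4% on chromosome 7. The Y chromosome and the mitochondrial genome held 3 and 2 ATAC regions, with no member among them.

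**Figure D5:**
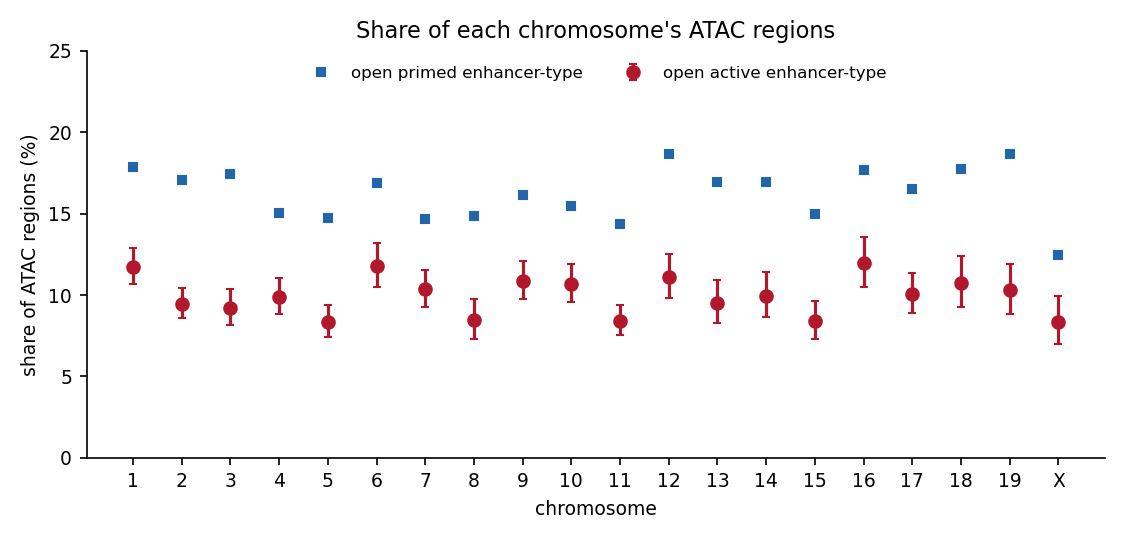
Share of each chromosome's ATAC regions (%, vertical axis) that are members (red, with 95% Wilson intervals) or primed regions (blue squares), by chromosome (horizontal axis). Members run from 8.32% on X to 11.9% on chromosome 16 and lie below primed regions on each chromosome.

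The threshold of 1 bp let in members that a stricter overlap removed. Asking for at least 50% of the width in each mark kept 3767 members (79.4%), and asking for the centre base kept 3628 (76.4%). Few members rested on only a few bases: 6 had under 10 bp of H3K27ac and 7 had under 10 bp of H3K4me1. Just inside, chr10:21922482-21923037 held 1 base of H3K27ac and touched an H3K4me3 region without overlap, chr6:146692619-146693121 held 1 base of H3K4me1, and chr5:121587624-121588329 held 3 bases of H3K27ac. Just outside, chr1:180695804-180696209 and chr7:91800389-91800768 touched an H3K27ac region without overlap, and chr2:35304109-35304804 missed H3K4me1 by 1 bp. In all, 219 members had less than 100 bp of one of the marks, and 131 regions outside lay within 100 bp of the mark they missed. On the side of H3K4me3, 137 regions were kept out by less than 100 bp of overlap, while 60 members lay within 100 bp of that mark and 467 (9.84%) within 1000 bp.

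Short H3K4me3 regions also decided membership. The H3K4me3 list holds 21160 regions under 1000 bp among 42879. Only such short regions kept out 3590 open regions with both H3K27ac and H3K4me1. The median width of these 3590 was 658 bp, between the 534 bp of members and the 957 bp of the 10636 regions kept out by H3K4me3 of 1000 bp or more. H3K4me1 covered the centre of 77.1% of them, between 88.4% in members and 49.8% in those with longer H3K4me3. Their median gap to RBPJ was 94733 bp, which lay above that of members (89639 bp).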

How the data were processed

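The authors deposited lists of region positions (a unit other than a measured value: chromosome, start and end, with a score of 0 throughout) for ATAC-seq, H3K27ac, H3K4me1, H3K4me3 and RBPJ. The submitters' processing notes name the build mm9, TopHat2 2.1.1, Picard and deepTools without their roles. The peak caller, its thresholds and whether replicates were pooled are not given in the sources used here. The deposited RNA table holds raw counts per gene for 24391 genes. Of its 65 columns 6 were used, scaled to CPM by the library total, to check markers and Rbpj without a test, and 59 were not used.

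Overlaps, gaps and covered bases were computed with Python 3.11.15, numpy 2.4.6, pandas 2.3.3 and scipy 1.17.1, and the interval functions were tested on 1000 simulated intervals against a count base by base, with 0 wrong. Positions are printed counting from 1. Named regions are the 5 clusters and 3 H3K27ac regions with most members, the 3 widest members, the 5 farthest from H3K4me3, and 3 just inside and 3 just outside the rule. The members, lists and rules were chosen with earlier results of these data known. Alternatives were a larger or centre overlap, wider exclusions around H3K4me3 or RBPJ, 1 RBPJ list, merged ATAC regions and other joining distances. The reference tables are of another build, so genes near members, sequences and motifs were not analysed here, nor was the expression of linked genes, which had been planned.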

Additional observations from a re-analysis of the deposited data

How the results depend on the processing

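Of 55 values recomputed under alternatives, 31 stayed within their interval or within 1.5 times a count and 24 moved. Some moves follow from the setting itself. Stricter overlaps or exclusions can only lower the share of the list, and leaving out members near H3K4me3 can only lengthen the median gap to it. A larger overlap also drops members with little acetylation, which favours whole-width cover. With at least 50% of the ATAC region covered, members were 7.89% of the list, their median gap to H3K4me3 was 10103 bp, 65.7% were acetylated over their whole width, and 195 clusters held 10.7% of them. With the centre base covered these values were 7.60%, 10285.5 bp, 66.0%, 184 clusters and 10.5%, and the median gap to RBPJ was 94498 bp. With H3K4me3 also excluded within 1000 bp, the share was 8.96%, the gap to H3K4me3 9956.5 bp and the share in clusters 13.5%. With only H3K4me3 regions of at least 1000 bp excluded, an alternative chosen after seeing the data, 8337 members made up 17.5% of the list. Their median width was then 580 bp, their gap to the nearest H3K4me3 region used 12377 bp, and 893 clusters held 23.3% of them. Joining at 5000 bp gave 183 clusters with 7.88% of members, and joining at 25000 bp gave 614 with 29.2%. The member count stayed between 3628 and 4794 under every other alternative. Primed regions were recomputed under 4 of these settings and had the longer median gap to H3K4me3 in each. Their gap to RBPJ was recomputed under 3, without the wider H3K4me3 exclusion, and was the longer in each: with the centre base, for instance, the primed medians were 13678 and 120843 bp. No paired analysis was possible because the lists hold no values per replicate, and leaving out a replicate was not run for the same reason. Alternatives for motifs, gene starts and linked genes were not run, since no genome or annotation of the build was used. Depth is unknown for the region lists, so a region that is not listed may have been missed at this depth.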

Other observations

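The mark lists were set slightly to the left of the ATAC list, toward lower coordinates. Pairs were taken where an ATAC region overlapped a single region of the other list. Over these pairs, the H3K27ac centre minus the ATAC centre had a median of −26 bp. Of the H3K27ac centres, 54.6% lay on the lower side. The medians were −16.5 bp for H3K4me1, −24.5 bp for H3K4me3, −49.75 bp for RBPJ in the control line and −25.75 bp for RBPJ with BioNICD1. Among members they were −31.5 bp for H3K27ac (4433 pairs) and −16.75 bp for H3K4me1 (4282 pairs), which also shows in the higher coverage at 500 bp on the left than on the right. Between the H3K27ac and H3K4me1 lists the median was 1.5 bp. After the mark lists were moved back by 26, 16 and 24 bp, a step chosen after seeing the data, 4756 regions met the rule, of which 4730 were members before (99.6% of the members). The cause of the offset was not tested.

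The widest acetylated regions without H3K4me3 broke the order of the narrower ones. Of the 99 H3K27ac regions of at least 2500 bp with H3K4me1 and no H3K4me3, 41 (41.4%) overlapped an ATAC region and 36 held a member, below the 72.1% found from 1500 to 2500 bp. With H3K4me3 the share at this width was 97.5%. The 99 lay on 20 chromosomes with at most 10 on 1 of them. H3K4me1 took up a median of 62.7% of their bases where an ATAC region was present and 20.6% where none was. What these regions are was not tested.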
